A study of Mus musculus with 6 samples.

Results

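The Bcl2 family decides whether a cell keeps or opens the outer membrane of its mitochondria, and 10 of its genes were followed here. Bcl2, Bcl2l1 and Mcl1 are survival members, Bax and Bak1 are the pore-forming effectors, and Bcl2l11, Bid, Bad, Bbc3 and Pmaip1 are BH3-only death members. They were found by symbol, as every probe set whose single gene symbol in the platform annotation, current or synonym, was one of the 10. That gave 103 probe sets for 9 of the genes, against 318760 probe sets with a single symbol in all. Bax was not analysed here, because no probe set carried it as its single symbol. Of the 103 probe sets, 94 had a mean log2 signal of at least 6.56, the median of all probe sets on the array, and all 9 genes kept 6 or more of them. These 9 were among 16871 genes tested.

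The cells were OP9, a mouse bone marrow stromal line, measured as total RNA on the Affymetrix Mouse Exon 1.0 ST array. Both groups had received pLKO.1-Puro lentivirus, carrying a scrambled hairpin in the control shRNA cells and a hairpin against Smoothened (Smo) in the Smo shRNA cells. Each stable line gave 3 RNA samples, and nothing in the labels ties them to separate transductions. The p-values therefore reflect how far these RNA samples differed within each line, which may be technical, and any other difference between the lines cannot be told apart from the hairpin. The comparison asks what differs in a stromal line that carries a hairpin against Smo, through which Hedgehog signalling runs. Whether that signalling was lost was not tested here.

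Survival members hold the effectors Bax and Bak1 in check at the mitochondrial surface. BH3-only proteins, produced or activated under stress, bind survival members and some bind the effectors directly. Once Bax or Bak1 forms pores, cytochrome c leaves the mitochondrion, joins Apaf1 in the apoptosome and activates caspases. Much of this family is controlled by protein modification and turnover, which an RNA measurement does not see. In bulk RNA, fewer cells of a type and less RNA per cell cannot be told apart.

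Smo, the gene the hairpin targets, was at 12.29, 12.22 and 12.24 in the control arrays and at 11.32, 11.36 and 11.44 in the Smo shRNA arrays, on the log2 signal scale. It fell by 0.88 (SE 0.04, limma adjusted p = 1.13e-09), which leaves 54.5% of the control signal. The 10 stromal markers had group means between 7.27 (Thy1, control cells) and 14.09 (Vim, control cells). The 6 tested haematopoietic markers lay between 7.66 and 9.01, the 4 epithelial markers between 7.65 and 8.68 and the 4 endothelial markers between 7.06 and 8.08. Signals of different genes are not comparable on this array, so these levels do not settle which cell types were present. Between the lines, 8 of the 10 stromal markers fell. Of the 6 tested haematopoietic markers 1 passed, Cd68, a macrophage marker, which rose by 0.47. The others did not pass, among them Itgam (-0.01) and Csf1r (0). Of the 8 epithelial and endothelial markers, 0 passed in limma. The part of these shifts in the results below was not tested.

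In Smo shRNA cells 1 of the 9 tested members fell, Bcl2, 1 rose, Bak1, and 7 did not pass an adjusted p of 0.05 in limma. That is 22.2% of the members, where 38.6% of all tested genes passed (21.3% higher and 17.4% lower). The median log2 difference of the members was 0.05, and that of all tested genes was 0.01. The 3 control and 3 Smo shRNA values did not overlap for Bcl2, Bcl2l1, Bak1 and Bid, or 4 of 9, against 47.8% of all tested genes. Neither share was above that of all genes.

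Of the 94 kept member probe sets, 6 were higher and 11 lower on their own, and 77 did not pass. Over all 245574 kept probe sets with a single symbol, 17.5% passed higher and 12.4% lower. Most of the calls in the members were in Bcl2 and Bcl2l11, which held 10 of the 11 lower ones. The higher count became 1 without control replicate 2 and 3 without Smo shRNA replicate 2. The lower count became 7 without control replicate 3, 7 without Smo shRNA replicate 1 and 6 without Smo shRNA replicate 2.

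**Figure D1:**
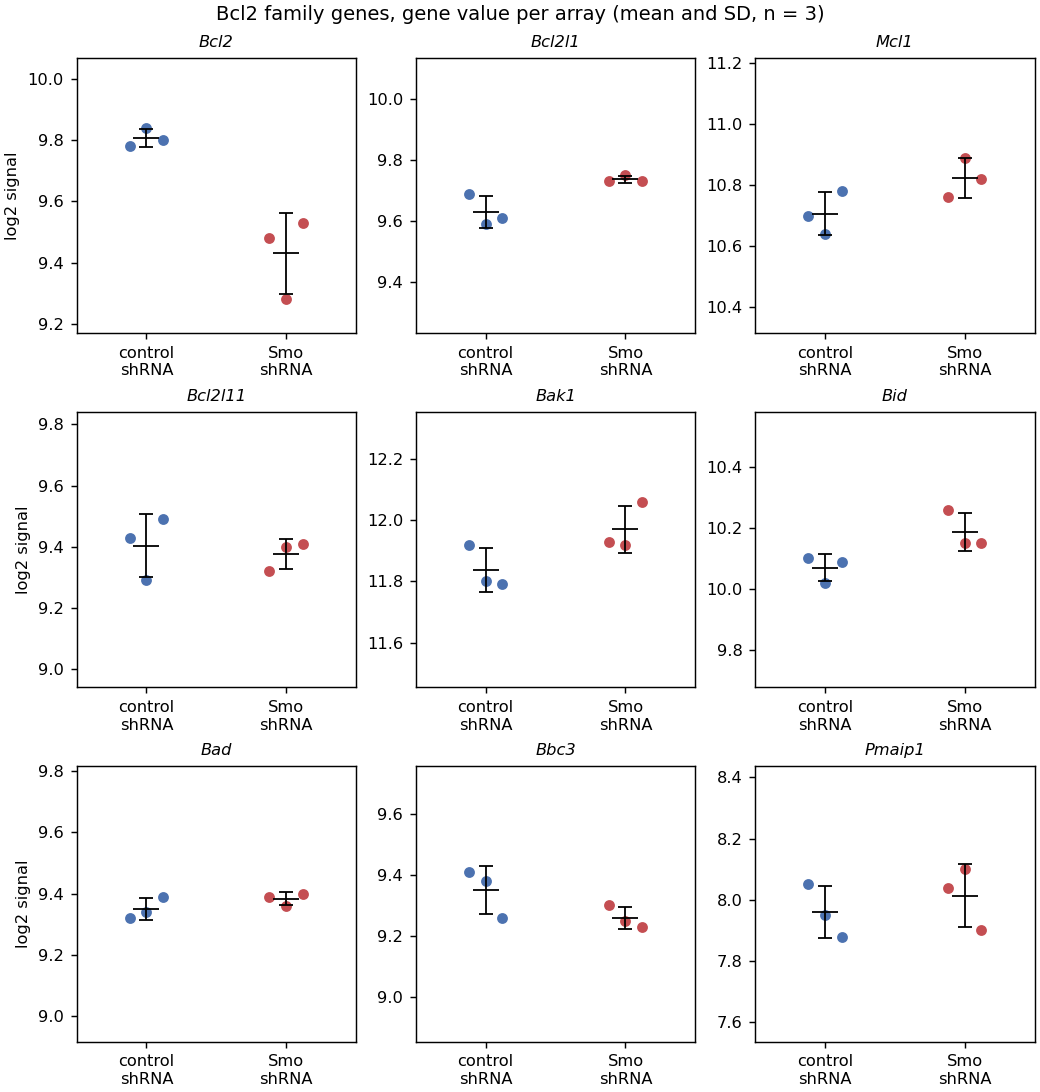
Gene values in log2 signal of the 9 measured Bcl2 family genes, with a point per array for control shRNA (blue) and Smo shRNA (red) cells and a bar for mean and SD (n = 3). All panels span the same number of log2 units. Bcl2 shows the widest separation, from a mean of 9.81 to 9.43, and the Bak1 means are 11.84 and 11.97.

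Bcl2 gave the family its name and holds BH3-only proteins and effectors inactive. Among the survival members followed here (Bcl2, Bcl2l1 and Mcl1), it was the one that fell. Its gene value was 9.78, 9.84 and 9.80 in the control arrays and 9.48, 9.28 and 9.53 in the Smo shRNA arrays. Every Smo shRNA value lay below every control value, and the second Smo shRNA replicate was the lowest. Bcl2 fell by 0.38 on the log2 scale (SE 0.07, 95% interval -0.53 to -0.24, limma adjusted p = 0.000402), to 76.7% of the control signal. The fall was called in all 16 alternative analyses, with differences from -0.43 to -0.31.

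Each of the 12 Bcl2 probe sets had a negative difference, and 6 passed individually. The brightest Bcl2 probe set, 5010010, went from 12.28 ± 0.04 to 11.82 ± 0.09 (SD, n = 3), a difference of -0.46 (SE 0.06, limma adjusted p = 2.72e-05). The largest difference was in probe set 4834952, at -0.66 (SE 0.13, limma adjusted p = 0.000943). The smallest was in probe set 4558502, at -0.04 (SE 0.12, limma adjusted p = 0.839). Without 1 array, 4 to 7 Bcl2 probe sets passed.

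Gli factors, the transcription factors through which Smo acts, are known to activate Bcl2 in other cells. For this reason, and because Bcl2 was the member that fell, its RefSeq promoter is shown. It covers chr1:106714291-106714540 on the minus strand of GRCm38.p6, the 250 bases before the gene's start. The values of the Gli genes on the list of regulators follow, and any part of Gli factors in the Bcl2 difference was not tested. Gli1 was at 8.35, 8.41 and 8.20 in control arrays and 8.57, 8.56 and 8.57 in Smo shRNA arrays, a difference of 0.25 (SE 0.07, limma adjusted p = 0.0118) that was called higher. The call was lost with the stricter filter (0.11) and without any 1 of the 6 arrays, where the difference was lowest without control replicate 3 (0.12). Gli2 had a difference of 0.01 (SE 0.07, 95% interval -0.15 to 0.16, limma adjusted p = 0.968). Both were named after their values were seen. Capitals mark GC boxes (GGGCGG on either strand), of which there are 7.

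Bcl2: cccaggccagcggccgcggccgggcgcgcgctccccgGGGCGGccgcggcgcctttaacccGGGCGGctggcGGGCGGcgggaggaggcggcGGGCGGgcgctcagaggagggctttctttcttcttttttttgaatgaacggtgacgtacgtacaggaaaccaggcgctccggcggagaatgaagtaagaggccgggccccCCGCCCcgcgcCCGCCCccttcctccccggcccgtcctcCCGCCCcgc

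The Gli consensus GACCACCCA was looked for on both strands and is not in this window, nor in the 13 windows of the other 7 members that RefSeq lists. It is rare at this length, in 0.225% of 32851 promoter windows of 250 bases. A GC box was in 32.7% of them. Windows of Mcl1, Bcl2l11, Bid, Bad and Bbc3 also hold GC boxes, and those of Bcl2l1 hold none. No match says only that these letters are not in this window.

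Bcl2l1, which encodes the survival protein Bcl-xL and by splicing a shorter death form, did not pass. It was at 9.69, 9.59 and 9.61 in control arrays and at 9.73, 9.75 and 9.73 in Smo shRNA arrays. The values did not overlap, and the difference was 0.11 (SE 0.05, 95% interval -0.01 to 0.22, limma adjusted p = 0.154). Of its 15 kept probe sets 13 had a positive difference, but only 4610096 passed (0.23, SE 0.07, limma adjusted p = 0.0207).

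Mcl1, a short-lived survival protein, was at 10.70, 10.64 and 10.78 in control arrays and at 10.76, 10.89 and 10.82 in Smo shRNA arrays. The ranges overlapped, and the difference of 0.12 missed the threshold (SE 0.05, 95% interval 0.01 to 0.23, limma adjusted p = 0.0856). Over 16 alternatives the difference ran from 0.06 to 0.13, and it passed in 1 of them, when the arrays were centred on 1 common median (0.11, limma adjusted p = 0.0317). It was smallest with the mean of probe sets (0.06, limma adjusted p = 0.503), and 0.07 without control replicate 2 or without Smo shRNA replicate 2. Its 11 probe sets differed in direction. Probe set 5439420, the brightest, was higher (0.22, SE 0.07, limma adjusted p = 0.0374) and 4809026 was lower (-0.33, SE 0.12, limma adjusted p = 0.0448). The latter fell from 9.79, 9.67 and 10.01 to 9.37, 9.62 and 9.49.

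Bak1, an effector that sits in the outer mitochondrial membrane, was the member that rose, and by little. It was at 11.92, 11.80 and 11.79 in control arrays and at 11.93, 11.92 and 12.06 in Smo shRNA arrays. The first control replicate lay next to the lowest Smo shRNA values, so the groups were barely apart. The difference was 0.13 (SE 0.05, 95% interval 0.03 to 0.23, limma adjusted p = 0.0321), a 1.10-fold change. Without any 1 of the 6 arrays the call was lost, with differences of 0.08 to 0.13. It was lost as well without the filter on dim probe sets, with the mean of probe sets, without a variance trend and after quantile normalization, so that 6 of 16 alternatives kept it. All 9 Bak1 probe sets had a positive difference, from 0.04 to 0.31, and 1 of them passed (5225163, 0.31, SE 0.10, limma adjusted p = 0.0235).

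The promoter of Bak1 is printed for contrast with that of Bcl2, because these were the members called in opposite directions. It covers chr17:27028628-27028877 on the minus strand of GRCm38.p6 and has none of the motifs searched, so it carries no capitals. Its GC content is 58.4%, and that of the Bcl2 window is 74.8%. Members that were not called lie at both ends as well. Windows of Bbc3 hold 5, 1 and 7 GC boxes, with GC contents of 76.4%, 72.4% and 81.6%. Those of Bcl2l1 hold no GC box, with GC contents from 47.6% to 53.2%. Any link between these letters and the calls was not tested.

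Bak1: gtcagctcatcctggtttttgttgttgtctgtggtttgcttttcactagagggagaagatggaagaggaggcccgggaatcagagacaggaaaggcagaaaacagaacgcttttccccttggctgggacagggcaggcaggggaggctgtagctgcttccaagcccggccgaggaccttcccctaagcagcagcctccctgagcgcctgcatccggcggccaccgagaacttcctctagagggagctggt

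Besides the Gli consensus and the GC box, the FoxO site GTAAACA (in 3.17% of all windows) and the E-box CACGTG (in 6.02%) were searched on both strands. A FoxO site lay in 1 of 2 windows of Bcl2l11 and in 1 of 3 windows of Bbc3, and an E-box in another window of Bbc3 that overlaps it. These matches are descriptions of letters and not of binding.

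Bid, which caspase-8 cleaves to carry a death receptor signal to mitochondria, did not pass. Its values were 10.10, 10.02 and 10.09 in control arrays and 10.26, 10.15 and 10.15 in Smo shRNA arrays. They did not overlap, and the difference was 0.12 (SE 0.05, 95% interval 0.00 to 0.23, limma adjusted p = 0.1). Of its 8 kept probe sets 2 were higher on their own, 5319689 by 0.29 and 5595721 by 0.14.

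Bcl2l11 encodes Bim, a BH3-only protein made in several splice forms that binds all survival members. Its gene value did not pass, at 9.43, 9.29 and 9.49 in control arrays and 9.32, 9.40 and 9.41 in Smo shRNA arrays. The difference was -0.02 (SE 0.06, 95% interval -0.16 to 0.12, limma adjusted p = 0.849), and its sign changed without control replicate 3 (0.05), without Smo shRNA replicate 1 (0.03) and with the stricter filter (0.04). Its probe sets went in opposite directions. Of 18 kept probe sets, 4 were lower and 1 was higher on their own. Over all kept probe sets with a single symbol, 12.4% passed lower and 17.5% higher. None of the 18 passed the test of departure from the gene value given below.

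Probe set 4685497 was the clearest of those that fell. It read 9.62, 9.86 and 9.99 in control arrays and 8.71, 8.91 and 9.26 in Smo shRNA arrays, a difference of -0.86 (SE 0.14, limma adjusted p = 0.000239). The groups did not overlap. Probe set 4902664, the brightest of the gene, rose from 11.27, 11.11 and 11.17 to 11.57, 11.49 and 11.52 (0.35, SE 0.07, limma adjusted p = 0.00107). Again no value of one line reached the other.

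The other 3 that fell were 5584316 (-0.60, SE 0.19, limma adjusted p = 0.0231), 5185346 (-0.28, SE 0.10, limma adjusted p = 0.0495) and 4372347 (-1.16, SE 0.35, limma adjusted p = 0.0176). The last was dim and scattered, at 5.53, 6.31 and 7.22 in Smo shRNA arrays, and overlapped the control values. Without control replicate 3 or Smo shRNA replicate 2 only 1 Bcl2l11 probe set was called lower, without control replicate 2 or Smo shRNA replicate 1 there were 2, and without a variance trend 1. The 2 Bcl2l11 probe sets below the brightness filter had differences of -0.69 and -0.81, the latter with overlapping lines, and a fit without the filter still called 4 Bcl2l11 probe sets lower.

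**Figure D2:**
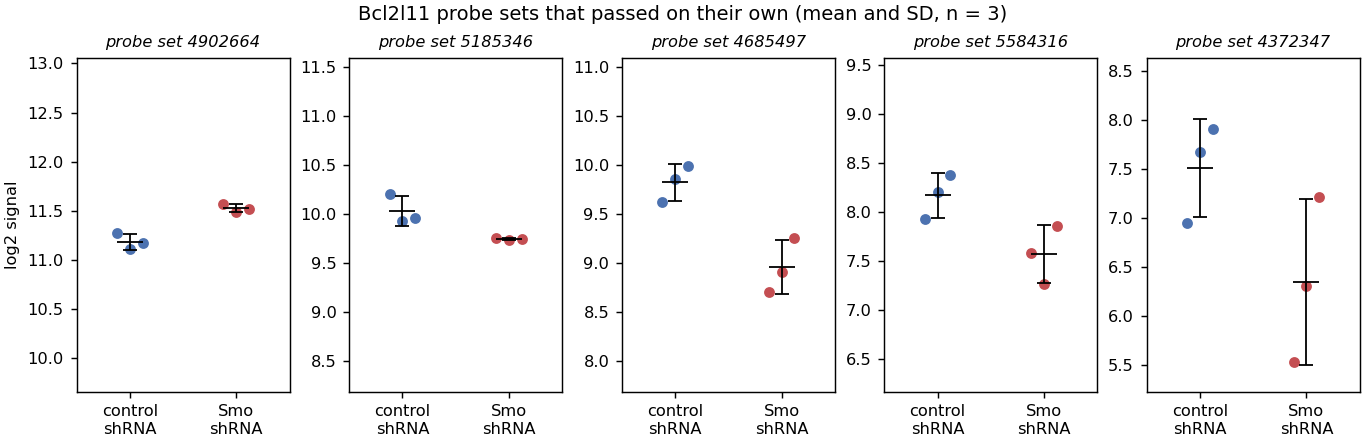
Log2 signal per array of the 5 Bcl2l11 probe sets that passed on their own, ordered from bright to dim, with a point per array (blue control shRNA, red Smo shRNA) and a bar for mean and SD (n = 3). Probe set 4902664 is higher in Smo shRNA cells and the other 4 are lower, with overlap between the lines in 4372347.

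Whether single probe sets departed from their gene was tested on the difference between each probe set and its gene, over 240543 probe sets. None of the 94 member probe sets passed in limma, where 1.17% of all did, and at an unadjusted p below 0.05 there were 5 above and 9 below their gene. The nearest were the Bcl2l11 probe sets 4685497 (-0.84, SE 0.15, limma adjusted p = 0.0520) and 4902664 (0.37, SE 0.06, limma adjusted p = 0.0545). Over the alternatives, the adjusted p of 4685497 ran from 0.0417 to 0.168 and it passed in 2 of 10, without Smo shRNA replicate 3 (-0.99) and with the replicate block. Mcl1 probe set 4809026 came next (-0.45, SE 0.10, limma adjusted p = 0.0916). Positions of probe sets within the genes were not used here, so none is assigned to an exon or a splice form.

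**Figure D3:**
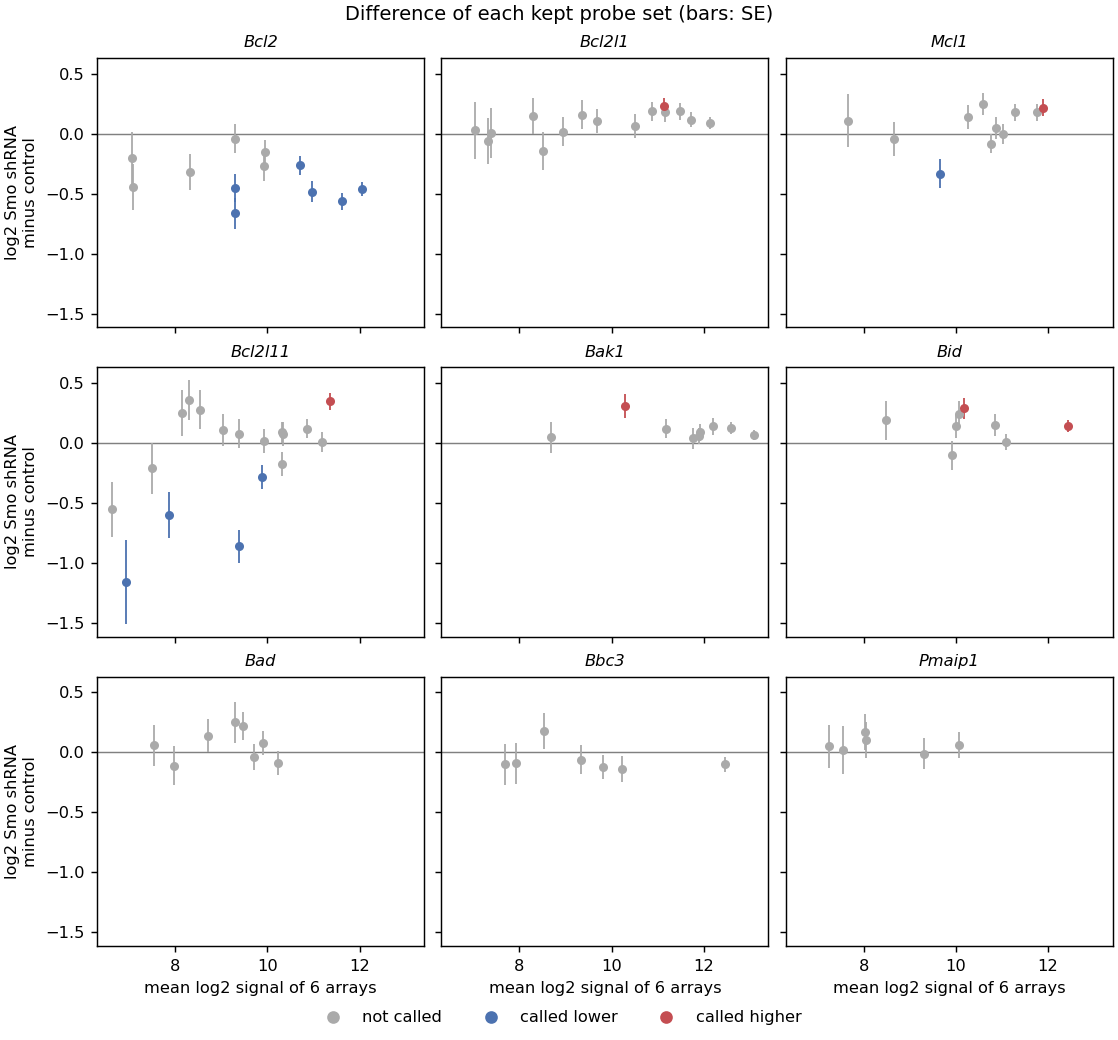
Log2 difference (Smo shRNA minus control shRNA, bar for SE) of the 94 kept probe sets of the 9 genes against their mean log2 signal over 6 arrays. All 12 Bcl2 probe sets lie below 0, those of Bak1 above 0, and those of Bcl2l11 on both sides, from -1.16 to 0.36.

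The remaining BH3-only genes did not pass. Bad, which neutralises Bcl2 and Bcl-xL when growth factor signalling falls, was at 9.32, 9.34 and 9.39 in control arrays and 9.39, 9.36 and 9.40 in Smo shRNA arrays. Its difference was 0.03 (SE 0.06, 95% interval -0.09 to 0.15, limma adjusted p = 0.713). Bbc3, which encodes the p53-induced protein Puma, was at 9.41, 9.38 and 9.26 in control arrays and 9.30, 9.25 and 9.23 in Smo shRNA arrays. The difference was -0.09 (SE 0.06, 95% interval -0.22 to 0.04, limma adjusted p = 0.303), with overlapping values. Pmaip1, which encodes Noxa, a partner of Mcl1, was at 8.05, 7.95 and 7.88 in control arrays and 8.04, 8.10 and 7.90 in Smo shRNA arrays (difference 0.05, SE 0.08, 95% interval -0.12 to 0.22, limma adjusted p = 0.674). None of the 8 Bad, 7 Bbc3 and 6 Pmaip1 kept probe sets passed in limma, and none reached an unadjusted p below 0.05. The 95% intervals of these 3 genes reach no further than 0.22 log2 units from 0, which does not show that the lines were alike.

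Genes next to the members were compared to see whether a member stood alone in its region. For Bcl2, on chromosome 1, the median difference of the other 991 tested genes of the chromosome was 0.01, and that of its 10 nearest tested neighbours was 0.06. The adjacent genes were Phlpp1 (0.36) and Kdsr (-0.20). For Bak1, on chromosome 17, these medians were -0.01 and -0.06. Neighbour medians of the 9 members lay between -0.06 and 0.14, the highest beside Bcl2l11, where 5 of 10 neighbours were called higher and 1 lower. Single neighbours could differ more, as Ccbe1 beside Pmaip1 did (-1.54).

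The gene with the profile nearest to Bcl2 over the 6 arrays, each centred on its mean, was Bmp4, a bone morphogenetic protein gene, at a root mean square distance of 0.033 log2 units and a difference of -0.39. Tnfaip8l1 (0.036, difference -0.37) and Selenos (0.045, difference -0.41) followed, and 543 genes lay within 0.1. The profile of Bak1 was common, with 5014 genes within 0.1, and the nearest were Mfsd6l, Cetn3 and Ppp1r13l at 0.017 each. Their differences were 0.14, 0.14 and 0.12, and unlike Bak1 none of them passed (limma adjusted p = 0.189, 0.0798 and 0.184). All profiles share the same 6 arrays and the difference between the lines.

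The counts of related lists are descriptions, and no list was tested against other genes, of which 21.3% were called higher and 17.4% lower with a median of 0.01. Of 16 other relatives of Bcl2, 10 were tested, of which 5 fell, 1 rose and 4 did not pass (60% called, median difference -0.18). Bmf, a BH3-only gene whose protein binds Bcl2, fell by 0.42 (9.06 ± 0.03 to 8.64 ± 0.04, SD, n = 3, SE 0.06, limma adjusted p = 6.33e-05). Bnip3l, a receptor for mitophagy, fell by 0.22 (SE 0.03, limma adjusted p = 9.29e-05), and Bcl2l12 by 0.26 (SE 0.06, limma adjusted p = 0.00325). Bcl2l13, another mitochondrial relative, rose by 0.19 (SE 0.05, limma adjusted p = 0.0129). That call was lost without control replicate 1 (0.20), 2 (0.12) or 3 (0.20) and without Smo shRNA replicate 1 (0.20) or 2 (0.14). Bcl2l2, a survival relative named after its value was seen, fell by 0.20 (SE 0.07, limma adjusted p = 0.0273). The count of relatives called lower was 3 without control replicate 1 or 3 or any of the Smo shRNA replicates, and 6 without control replicate 2. The 6 relatives with fewer than 3 kept probe sets of a single symbol, among them the Bcl2a1 copies, were not tested.

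The list of apoptosome and caspase genes had calls in both directions. Of 11 tested, 5 rose, 2 fell and 4 did not pass (63.6% called, against 38.6% of all tested genes, median 0.12). Of the apoptosome itself, Cycs, which encodes cytochrome c, rose by 0.25 (limma adjusted p = 0.00688). Apaf1 (0.08, limma adjusted p = 0.335) and Casp9 (0.11, limma adjusted p = 0.157) did not pass. Cycs, Apaf1 and Casp9 were named after their values were seen. The initiator caspase Casp2 was 1.63-fold higher (10.65 ± 0.05 to 11.35 ± 0.05, SD, n = 3, log2 difference 0.70, SE 0.04, limma adjusted p = 3.22e-08). Casp12, a caspase linked to the endoplasmic reticulum, was 1.89-fold lower (-0.92, SE 0.06, limma adjusted p = 8.7e-08), and the executioner Casp6 fell by 0.20 (SE 0.04, limma adjusted p = 0.000871). Aifm1, a mitochondrial flavoprotein, rose by 0.21 (SE 0.05, limma adjusted p = 0.00521), a call lost without control replicate 1 (0.20) or 2 (0.18) or Smo shRNA replicate 2 (0.17). Without control replicate 1 or 2, 1 gene was called higher, without control replicate 3 there were 2, and without Smo shRNA replicate 1 or 2 there were 3.

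On the list of inhibitors of apoptosis, 2 of 7 tested rose and 2 fell (57.1% called, against 38.6% of all tested genes, median -0.14). Naip2 went from 10.12 ± 0.12 to 8.88 ± 0.04 (SD, n = 3), a 2.37-fold lower signal (-1.24, SE 0.07, limma adjusted p = 6.02e-09) and Naip6 1.92-fold lower (-0.94, SE 0.12, limma adjusted p = 2.63e-05). The Naip genes are near-identical copies and can share signal. Birc5, which encodes survivin and also acts in mitosis, rose by 0.44 (SE 0.06, limma adjusted p = 7.11e-05), and Birc6 by 0.17 (SE 0.04, limma adjusted p = 0.00288). The Birc6 call was lost without Smo shRNA replicate 1 (0.17), 2 (0.15) or 3 (0.15), which left 1 gene called higher, and without control replicate 1 the difference was 0.10 and still called.

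The list of mitochondrial partners of Bax and Bak also holds genes for proteins of the endoplasmic reticulum, among them Tmbim6. Of its 12 tested genes, 6 rose, 2 fell and 4 did not pass (median 0.08). The share called was 66.7%, against 38.6% of all tested genes. Ppif, which encodes cyclophilin D of the permeability transition, was 1.49-fold higher (12.07 ± 0.05 to 12.64 ± 0.05, SD, n = 3, SE 0.04, limma adjusted p = 2.22e-08). The outer membrane channels Vdac1 and Vdac3 rose by 0.16 and 0.21 (limma adjusted p = 4.62e-05 and 0.000183), while Vdac2, which holds Bak in the membrane, had a difference of 0.02 (limma adjusted p = 0.734). Tmbim6, known as Bax inhibitor 1, fell by 0.22 (SE 0.03, limma adjusted p = 3e-05). Without control replicate 1 or 2 or any of the 3 Smo shRNA replicates, 3 genes were called higher. Vdac2 was named after its value was seen.

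In the death receptor pathway 2 of 10 genes rose and 3 fell (50% called, against 38.6% of all tested genes, median -0.02). Fas, the receptor that can trigger Bid cleavage, had a mean of 9.04 ± 0.18 in control and 7.91 ± 0.07 in Smo shRNA cells (SD, n = 3) and was 2.19-fold lower (-1.13, SE 0.09, limma adjusted p = 2.24e-07). The tumour necrosis factor receptor Tnfrsf1b and the TRAIL receptor Tnfrsf10b rose by 0.32 and 0.16 (limma adjusted p = 0.000286 and 0.00403). Cflar, an inhibitor of caspase-8, fell by 0.22 (SE 0.07, limma adjusted p = 0.0149). Its call was lost without control replicate 1 (-0.21) or 3 (-0.12), without Smo shRNA replicate 1 (-0.17) or 2 (-0.22), and with the mean of probe sets (-0.16), and each of these analyses called 1 gene lower.

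Among 15 tested regulators of family genes and proteins, 6 rose, 0 fell in limma and 9 did not pass (median 0.10). The share called was 40%, near the 38.6% of all tested genes. At an unadjusted p below 0.05, 7 were higher and 0 lower. Myc, which sensitises cells to apoptosis, rose by 0.44 (SE 0.03, limma adjusted p = 1.83e-07). Ddit3, the stress factor CHOP, rose by 0.81 (SE 0.08, limma adjusted p = 2.88e-06). Huwe1, a ubiquitin ligase for Mcl1, rose by 0.28 (SE 0.04, limma adjusted p = 4.61e-05) and the survival kinase Akt1 by 0.27 (SE 0.03, limma adjusted p = 1.54e-05). Trp53 was not analysed here.

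**Figure D4:**
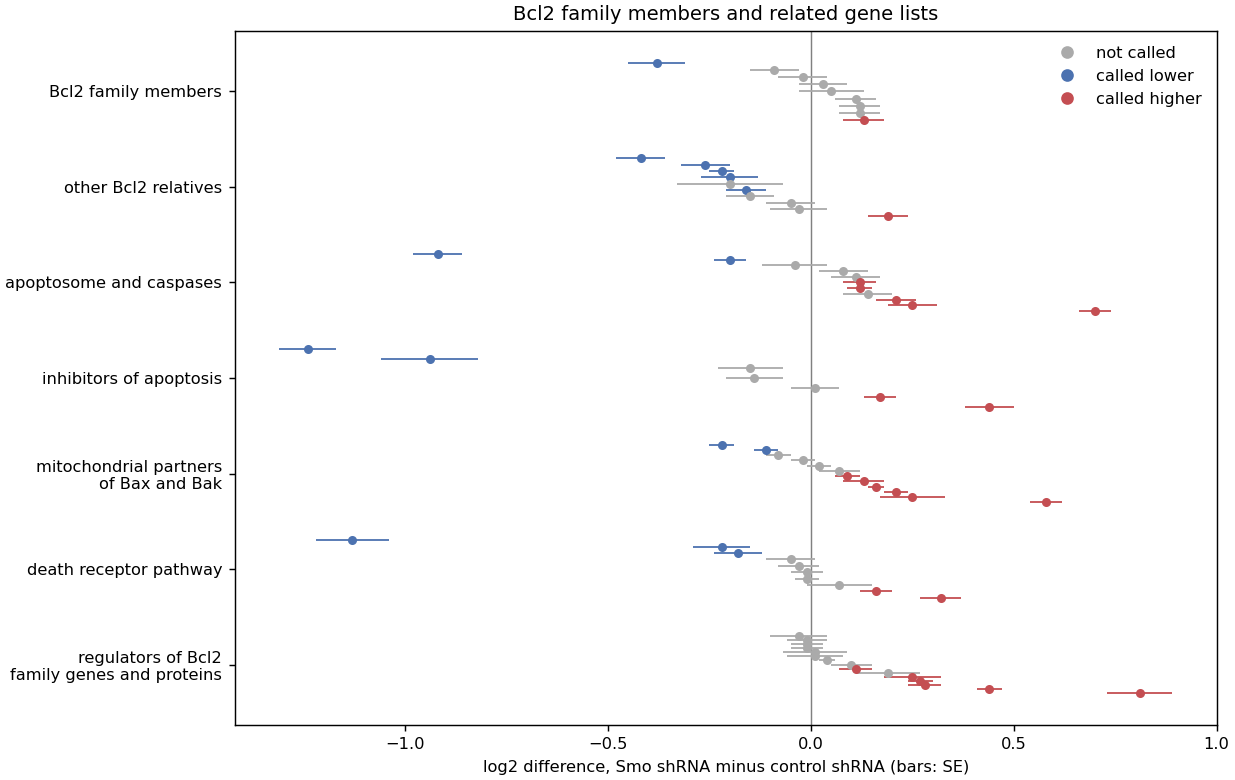
Log2 difference (Smo shRNA minus control shRNA, bar for SE) of the 9 measured Bcl2 family members and of the tested genes of 6 related lists, a point per gene, red for called higher, blue for called lower and grey for not called. The members span -0.38 to 0.13, while Naip2 (-1.24), Fas (-1.13), Casp12 (-0.92), Casp2 (0.70) and Ddit3 (0.81) lie further from 0.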

How the data were processed

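The authors deposited a table of 1256831 exon probe sets as log2 values for 6 arrays. The log2 scale was read from the values (0 to 15.14), and the array medians, 6.56 to 6.59, look normalized. How they were summarised and normalized is not stated in the labels or the file header. Gene names came from the platform annotation, updated through RefSeq synonyms (GRCm38.p6). Probe sets with a mean at or above 6.56 were kept, and genes with 3 or more were joined by Tukey median polish, giving 16871 genes. The arrays were compared over all genes, and over all kept probe sets, with limma 3.58.1 in R 4.3.3 (lmFit, eBayes with a variance trend, two-sided, Benjamini-Hochberg, threshold 0.05). Differences are Smo shRNA minus control shRNA, SE is moderated, and intervals are moderated 95% intervals, unadjusted. Signals of different genes are not comparable, and the number of arrays limits the precision. The calculation was tested on simulated data. Promoter windows were RefSeq sequences.

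The members and lists were chosen with earlier results of these data known. The genes named are all members and, per list, up to 4 called genes with the smallest adjusted p. Nearest profiles are given for the 2 called members with the largest differences. The alternatives varied the filter, the summary, the minimum of probe sets, the variance model, the scaling and the replicate block, and left out each array. The replicate numbers were not taken as pairs in the main comparison. Same-numbered arrays of the lines deviated together with correlations of 0.08, 0.102 and 0.389 over genes. Arrays with unlike numbers gave correlations from -0.366 to 0.307. These values do not settle whether the numbers mark pairs.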

Additional observations from a re-analysis of the deposited data

How the results depend on the processing

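Bcl2 stayed lower in all 16 alternatives. The Bak1 call was lost without the filter on dim probe sets (0.13), with the mean of probe sets (0.11), without a variance trend (0.13) and after quantile normalization (0.11), which each left 0 members called higher in limma, and without any 1 array (0.08 to 0.13, again 0 members higher). Median centring called Mcl1 too (0.11), making 2 members higher. The Bcl2l11 difference changed sign with the stricter filter (0.04) and ran from -0.04 to 0.05 without 1 array. It was furthest from 0 with the mean of probe sets (-0.12, SE 0.07, limma adjusted p = 0.227).

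Counts in lists moved as follows. Inhibitors of apoptosis called lower became 1 with the stricter filter. Death receptor genes called lower became 1 with the mean of probe sets. Without a variance trend, 3 apoptosome and caspase genes were higher, 1 mitochondrial partner was lower, and member probe sets numbered 2 higher and 7 lower, with 1 Bcl2l11 probe set lower. Without 1 array, the ranges were 0 to 1 higher and 3 to 6 lower for other relatives, 1 to 4 higher for apoptosome and caspases, 1 to 2 higher for inhibitors, 3 to 5 higher for mitochondrial partners and 1 to 3 lower for death receptors. Member probe sets then ranged from 1 to 8 higher and 6 to 11 lower, and those of Bcl2l11 from 1 to 2 higher and 1 to 4 lower.

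With the replicate block, 6924 genes were called in place of 6518, 6474 of them in both, and the count of members called stayed at 2. Not every array correlated best with its own number. In the deviation test, whose alternatives were chosen after seeing the data, the block called 1 Bcl2l11 probe set lower (4685497, -0.84, limma adjusted p = 0.0417), leaving out 1 array 0 to 1, and a gene value from the other probe sets called 1 probe set of the other members. Gli1, Gli2, Vdac2, Bcl2l2, Cycs, Apaf1 and Casp9 were added after their values were seen. The alternatives are not given for Bcl2l2, Cycs, Apaf1 and Casp9. Gli2 changed sign with the stricter filter (-0.04) and quantile normalization (-0.01) and ran from -0.04 to 0.03 without 1 array. Vdac2 then ran from -0.01 to 0.04, and Gli1 from 0.12 to 0.24. Under the stricter filter Pmaip1 and Naip6 had too few probe sets and could not be fitted, nor could Myc with at least 5 probe sets. The cause of these moves was not tested.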
